A study of Mus musculus with 10 samples.

Results

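The enzymes of amino acid catabolism were followed in kidney cortex of diabetic mice. The set was a list of 51 gene symbols covering the breakdown of branched-chain amino acids, tyrosine, proline, ornithine, glycine, serine, lysine, histidine, D-amino acids, cysteine precursors and glutamate. Each symbol was converted to its Entrez Gene ID, and 48 of the 51 had a row among the 16475 genes of the deposited table. Amt, Gcsh and Agxt2 were not analysed here. Mut is listed as Mmut in the RefSeq gene table, and the row of Sds was named through its Entrez ID.

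Amino acids lose their nitrogen mainly by transfer to 2-oxoglutarate, which makes glutamate, and their carbon skeletons then enter the tricarboxylic acid cycle, gluconeogenesis or ketone body synthesis. Most of these steps run in mitochondria. In kidney, cells of the proximal tubule take up filtered amino acids, release ammonia made from glutamine and glutamate, and make glucose, serine and the creatine precursor guanidinoacetate.

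The diabetic animals were 5 BKS db/db mice, homozygous for the leptin receptor mutation that names the strain, and they were set against 5 nondiabetic littermates, BKS db/m mice with the mutation on 1 copy. The mice were 24 weeks old, the sampled tissue was renal cortex deprived of glomeruli, and each animal gave 1 Affymetrix array. All levels below are log2 values as deposited. A change is the db/db mean less the db/m mean of those log2 values, given with its standard error from limma. A gene is said to have risen or fallen where its limma p value, adjusted with Benjamini-Hochberg over all 16475 genes, was under 0.05.

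One diabetic mouse, db/db 1, stood apart from the other 9. Its array correlated with theirs at a Pearson r of 0.938 to 0.962 across genes. Over 12 tubular injury genes the mean level was 12.55 in db/db 1 and 9.08 to 10.18 in db/db 2 to 5, against 8.23 to 9.03 in db/m mice. Over 9 neutrophil and macrophage genes it was 11.50 in db/db 1 and 7.07 to 9.23 in db/db 2 to 5, against 7.84 to 8.23 in db/m mice. The changes are given with all 10 arrays and again without db/db 1, a comparison chosen with earlier results of these data known. In whole tissue, fewer cells of a type and less RNA per cell cannot be told apart, and the part of these cells in the enzyme levels was not tested.

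With all 10 arrays 3 of the 48 enzymes changed. The ornithine aminotransferase gene Oat rose by 0.51 ± 0.11, the D-aspartate oxidase gene Ddo fell by 0.80 ± 0.11 and the cystathionine beta-synthase gene Cbs fell by 0.64 ± 0.12. This is 6.25% of the enzymes, beside 6.51% of all genes past the threshold (2.96% higher and 3.54% lower in db/db), so the share was near the background. With db/db 1 left out these 3 enzymes and 7 more changed, which is 20.8% of the enzymes beside 12.8% of all genes. In that comparison 7 enzymes rose (14.6%, beside 6.84% of all genes) and 3 fell (6.25%, beside 5.93% of all genes). The added rises were in Prodh2, Shmt1, Gldc, Gpt, Bcat2 and Glud1, and the added fall was in Ivd. The enzymes had a mean level of 11.48 to 11.66 in db/m mice, beside 8.22 to 8.25 over all genes. With the dimmest 25% of genes and db/db 1 left out, 10 of 46 enzymes passed, while of all genes 1176 were higher and 1048 lower. Shares over all genes, here and below, include dim genes. Whether any excess holds among genes of like level was not tested.

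The median change over the 48 enzymes was -0.09 with all arrays, beside -0.03 over all genes, and 0.03 without db/db 1, beside -0.01 over all genes. With all arrays 33 of the 48 changes (68.8%) were below 0, beside 56.9% over all genes, and with db/db 1 set aside 20 were (41.7%), beside 51.5%. Between the 2 comparisons 13 enzymes had changes of opposite sign, none of them past the threshold in either. The enzymes were steady among the db/m mice, with a median SD of 0.11 over 5 mice, beside 0.15 over all genes. Mut varied least, with an SD of 0.03, and Bcat1 varied most, with an SD of 1.62.

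The array that separates the 2 comparisons was low for most enzymes. In db/db 1 the median enzyme stood 0.58 below the db/m mean (a difference of -0.58), beside -0.17 over all genes, and 44 of 48 enzymes were below the db/m mean. In db/db 2, 3, 4 and 5 the median enzyme stood at -0.04, 0.05, 0.06 and 0.04 from the db/m mean. Db/db 1 had the lowest level of the 10 arrays for 39 of 48 enzymes, which is 81.2% of them, beside 41.6% of all genes. It had the highest level for 1 enzyme (2.08%), beside 19.9% of all genes. The heat map of all 48 enzymes shows this array as a mostly blue column.

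**Figure D1:**
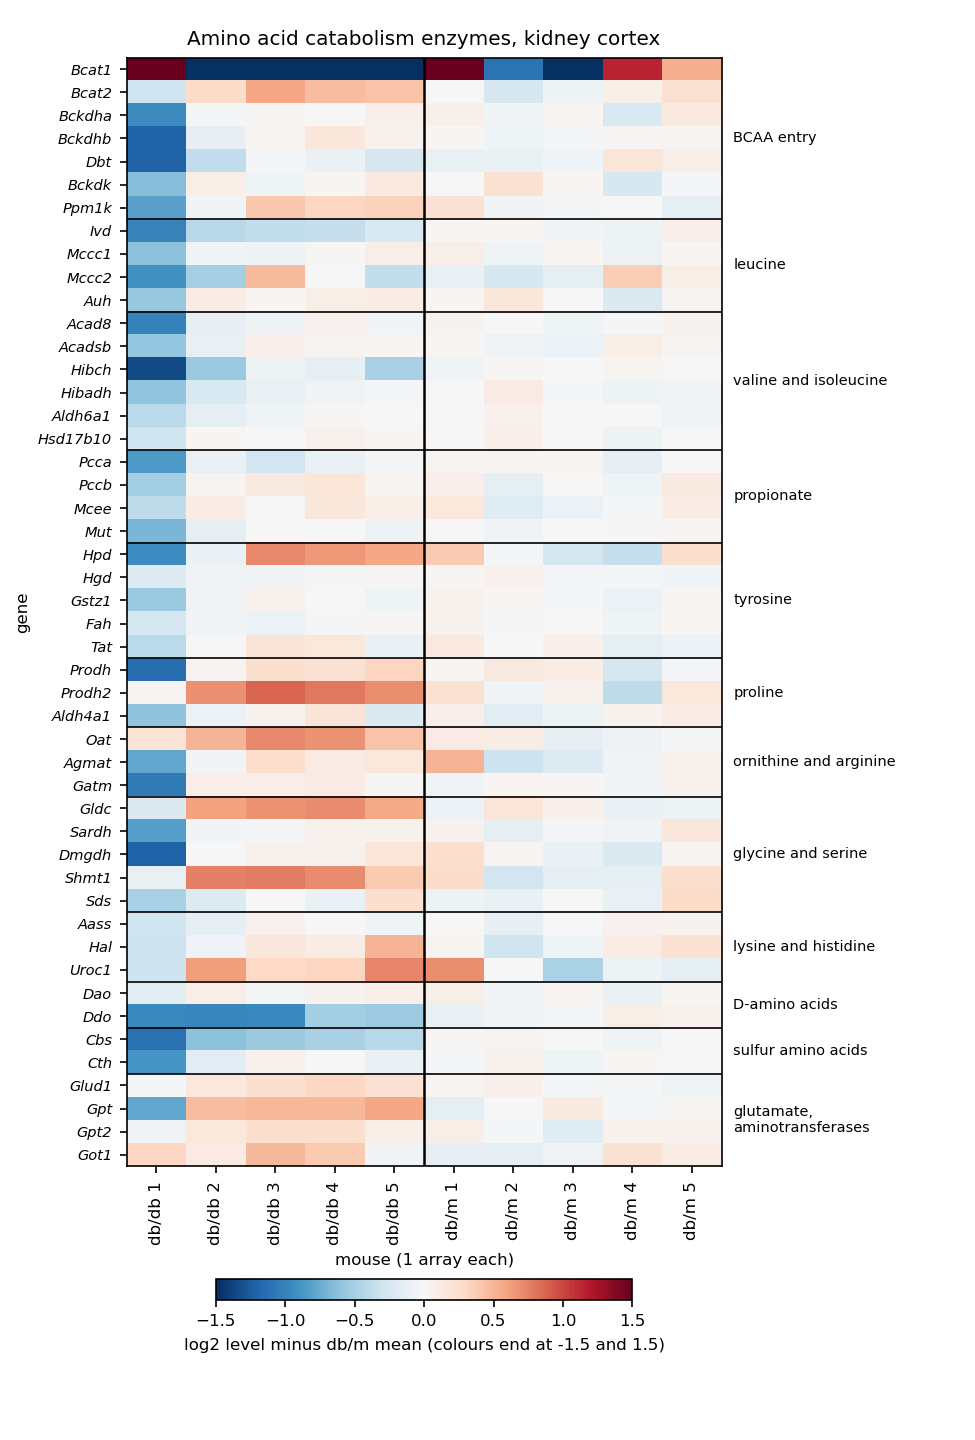
Log2 level of each of the 48 enzymes (rows, grouped by amino acid) in each mouse (columns, db/db left of db/m) minus the mean of the 5 db/m mice, with blue lower and red higher and colours ending at -1.5 and 1.5. The db/db 1 column lies below the db/m mean for 44 enzymes, while Ddo and Cbs are blue in all 5 db/db mice and Oat is red in all 5.

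Promoters are shown for the 3 enzymes past the threshold in both comparisons and for Prodh2, which had the largest rise. Each is the 250 bases before the start site used in the RefSeq promoter table on build GRCm38.p6, written 5′ to 3′ along the gene. For Oat and Ddo that site is the outer end of the annotated gene, while for Cbs and Prodh2 it lies inside the gene, so the last 28 bases of the Cbs window and the last 72 of the Prodh2 window are within the gene as annotated. Oat lies on the minus strand at chr7:132576399-132576648, Ddo on the plus strand at chr10:40629761-40630010, Cbs on the minus strand at chr17:31637206-31637455 and Prodh2 on the plus strand at chr7:30493408-30493657. Capitals mark matches on either strand to the CCAAT box (CCAAT), the GC box (GGGCGG) and the core of the HNF1 motif (TTAAT and ATTAA with 1 base between), HNF1 factors being regulators of proximal tubule genes.
Oat: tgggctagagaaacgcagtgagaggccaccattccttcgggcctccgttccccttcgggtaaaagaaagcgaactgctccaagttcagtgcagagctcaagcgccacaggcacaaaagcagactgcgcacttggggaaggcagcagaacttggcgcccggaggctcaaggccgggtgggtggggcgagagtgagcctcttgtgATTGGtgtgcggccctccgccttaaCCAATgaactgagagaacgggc
Ddo: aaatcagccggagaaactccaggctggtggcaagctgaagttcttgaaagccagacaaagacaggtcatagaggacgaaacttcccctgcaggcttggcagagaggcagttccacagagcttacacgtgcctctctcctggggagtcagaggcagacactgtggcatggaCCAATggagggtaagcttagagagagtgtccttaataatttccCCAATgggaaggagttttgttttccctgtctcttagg
Cbs: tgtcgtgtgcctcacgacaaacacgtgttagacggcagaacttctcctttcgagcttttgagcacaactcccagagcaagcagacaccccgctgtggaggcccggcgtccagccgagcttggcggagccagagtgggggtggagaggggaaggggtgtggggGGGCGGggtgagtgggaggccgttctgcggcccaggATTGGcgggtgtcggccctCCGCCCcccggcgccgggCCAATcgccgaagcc
Prodh2: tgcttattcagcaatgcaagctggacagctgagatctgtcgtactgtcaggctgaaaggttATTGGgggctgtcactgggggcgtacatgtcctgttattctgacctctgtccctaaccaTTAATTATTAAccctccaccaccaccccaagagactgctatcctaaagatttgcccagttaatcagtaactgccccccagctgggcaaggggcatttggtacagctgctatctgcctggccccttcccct
All 4 windows hold a CCAAT box, with 2 matches each in Oat, Ddo and Cbs and 1 in Prodh2, and 33.8% of the 32851 windows of this length in the table hold at least 1. Cbs holds 2 GC boxes, a motif in 32.7% of all windows. The CCAAT box nearer the end of the Cbs window lies inside the annotated gene, and the nearer GC box reaches into it by 1 base. Prodh2 holds 1 HNF1 core, which is in 0.116% of all windows. The TATA box (TATAAA, in 12.4% of all windows) had no match in the 4 windows. The motifs were chosen with the values known, do not overlap each other in these windows, and describe letters alone.

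Branched-chain amino acids begin with a reversible transamination and an irreversible decarboxylation that leucine, isoleucine and valine share. Of the 7 genes for these entry steps none passed with all arrays, with a lowest adjusted p of 0.304, and Bcat2 rose without db/db 1. Bcat2, the mitochondrial branched-chain aminotransferase, had 10.61, 11.18, 11.49, 11.37 and 11.34 in db/db mice 1 to 5, against 10.91, 10.67, 10.83, 11.00 and 11.14 in db/m mice 1 to 5. Db/db 1 had the lowest level of all, and the other 4 db/db mice lay above all 5 db/m mice. The change was 0.29 ± 0.16 (adjusted p = 0.341) with all arrays and 0.43 ± 0.10 (adjusted p = 0.0225) without db/db 1. That call was kept in 5 of 9 fits that left out 1 further array, and the adjusted p was 0.0586 without db/m 3, 0.0647 without db/db 3, 0.0576 without db/db 4 and 0.0505 without db/db 5.

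Bcat1, the cytosolic aminotransferase, spread widely among the db/m mice (SD 1.62), and among the db/db mice through db/db 1 (SD 1.71, or 0.34 without it). Its levels were 10.69 in db/db 1 and 6.42 to 7.17 in db/db 2 to 5, against 10.42, 7.67, 6.57, 9.92 and 9.33 in db/m mice 1 to 5. Db/db 1 had the highest level of all arrays, the only enzyme of the 48 for which it did, and the groups overlapped. The change was -1.11 ± 0.93 (adjusted p = 0.54) with all arrays and -1.86 ± 0.71 (adjusted p = 0.123) without db/db 1.

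The branched-chain ketoacid dehydrogenase complex itself did not pass. For its E1 subunits Bckdha and Bckdhb and its E2 core Dbt the changes were -0.18, -0.22 and -0.39 with all arrays, and 0.02, 0.03 and -0.18 without db/db 1. For Bckdk, the kinase that inactivates the complex, they were -0.09 and 0.05, and for Ppm1k, the phosphatase that activates it, they were 0.04 and 0.26. Adjusted p was at least 0.304 with all arrays and at least 0.149 without db/db 1 for these 5 genes.

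Leucine breakdown goes on through Ivd, the isovaleryl-CoA dehydrogenase. Ivd had 12.29, 12.88, 12.92, 12.95 and 13.07 in db/db mice 1 to 5, against 13.31, 13.32, 13.25, 13.22 and 13.37 in db/m mice 1 to 5. All 5 db/db mice lay below all 5 db/m mice, as in 5.85% of all genes. The change was -0.47 ± 0.13 (adjusted p = 0.0632) with all arrays, and without db/db 1 Ivd fell by 0.34 ± 0.06 (adjusted p = 0.00704), or 1.27-fold. That call was kept in all 9 fits that left out 1 further array, the highest adjusted p being 0.0231. The next enzymes of the path did not pass in either comparison. For Mccc1 and Mccc2, the subunits of methylcrotonyl-CoA carboxylase, the changes were -0.12 and -0.26 with all arrays, and for Auh, the methylglutaconyl-CoA hydratase, the change was -0.05. For Mccc1, Mccc2 and Auh they were 0.00, -0.10 and 0.08 without db/db 1.

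Valine and isoleucine breakdown had no enzyme past the threshold in either comparison, and all 6 changes were below 0 with all arrays, between -0.52 and -0.04. Nearest was Hibch, the hydroxyisobutyryl-CoA hydrolase of valine breakdown, with 10.28, 11.06, 11.54, 11.50 and 11.13 in db/db mice 1 to 5, against 11.56, 11.64, 11.63, 11.66 and 11.61 in db/m mice 1 to 5. All db/db mice lay below all db/m mice, db/db 3 by a narrow margin. The change was -0.52 ± 0.21 (adjusted p = 0.179) with all arrays and -0.31 (adjusted p = 0.0851) without db/db 1. The valine enzymes Acad8, Hibadh and Aldh6a1 had -0.24, -0.20 and -0.11 with all arrays and -0.04, -0.10 and -0.04 without db/db 1. The isoleucine enzymes Acadsb and Hsd17b10 had -0.11 and -0.04 with all arrays and 0.01 and 0.03 without db/db 1.

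Propionyl-CoA, the product shared by valine and isoleucine, is carried to succinyl-CoA by 4 gene products, and none passed in either comparison. Pcca, the biotin-carrying subunit of propionyl-CoA carboxylase, had 11.88, 12.63, 12.46, 12.64 and 12.73 in db/db mice 1 to 5, against 12.79, 12.79, 12.79, 12.60 and 12.75 in db/m mice 1 to 5. The groups overlapped, with db/db 1 lowest, and the change was -0.28 ± 0.15 (adjusted p = 0.311), or -0.13 (adjusted p = 0.292) without db/db 1. For the other subunit Pccb, the epimerase Mcee and the mutase Mut the changes were -0.03, 0.01 and -0.18 with all arrays and 0.10, 0.10 and -0.05 without db/db 1. Over the 21 branched-chain genes together the median change was -0.18 with all arrays and 0.00 without db/db 1, with 0 and 2 genes past the threshold in the limma fit. Of all genes 6.51% and 12.8% were past it, and the 2 calls were Bcat2, higher, and Ivd, lower. Over all 48 enzymes 9 had an unadjusted p under 0.05 with all arrays and 17 without db/db 1. The share of all genes under that unadjusted p was not counted, so no excess can be read from these counts. Db/db 1 was the lowest array for 20 of the 21 branched-chain genes, beside 41.6% of all genes.

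Tyrosine breakdown had 0 of 5 enzymes past the threshold in either comparison. Fah, the fumarylacetoacetase of the last step, had the lowest adjusted p with all arrays (-0.08 ± 0.07, adjusted p = 0.52), with 13.44, 13.64, 13.60, 13.66 and 13.71 in db/db mice 1 to 5, against 13.74, 13.67, 13.69, 13.63 and 13.72 in db/m mice 1 to 5. The groups overlapped, with db/db 1 and, by a narrow margin, db/db 3 below all db/m mice. Hpd, the 4-hydroxyphenylpyruvate dioxygenase, had 11.95 in db/db 1, 12.79 in db/db 2 and 13.47 to 13.61 in db/db 3 to 5, against 12.55 to 13.28 in db/m mice, with changes of 0.18 ± 0.31 and, without db/db 1, 0.46 (adjusted p = 0.18). For the homogentisate dioxygenase Hgd, the isomerase Gstz1 and the tyrosine aminotransferase Tat the changes were -0.06, -0.12 and -0.03 with all arrays and -0.03, -0.01 and 0.06 without db/db 1.

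Proline and hydroxyproline are oxidised by separate dehydrogenases that share the next enzyme. Prodh2, the hydroxyproline dehydrogenase, had 11.51, 12.17, 12.36, 12.28 and 12.18 in db/db mice 1 to 5, against 11.71, 11.44, 11.54, 11.10 and 11.64 in db/m mice 1 to 5. Db/db 1 lay within the db/m range and the other 4 db/db mice above it. The change was 0.61 ± 0.17 (adjusted p = 0.0623) with all arrays, and without db/db 1 Prodh2 rose 1.69-fold (0.76 ± 0.12, adjusted p = 0.00351), the largest rise among the 48 enzymes in either comparison. Its promoter is the one above with the HNF1 core, and a link between that motif and the change was not tested. Prodh, the proline dehydrogenase, had -0.06 with all arrays and 0.21 (adjusted p = 0.181) without db/db 1, and the shared Aldh4a1, the pyrroline-carboxylate dehydrogenase, had -0.13 and -0.01.

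Ornithine is turned into the same pyrroline-carboxylate by Oat, whose level rose in both comparisons. Oat had 12.45, 12.75, 12.96, 12.91 and 12.67 in db/db mice 1 to 5, against 12.37, 12.35, 12.12, 12.16 and 12.21 in db/m mice 1 to 5. All db/db mice lay above all db/m mice, as in 4.35% of all genes, with db/db 1 closest to them. The rise was 1.42-fold with all arrays (adjusted p = 0.0207) and 1.5-fold without db/db 1 (0.58 ± 0.09, adjusted p = 0.00258). With all arrays the call was lost without db/m 3, db/m 4 or db/m 5, with adjusted p of 0.0633, 0.056 and 0.0501, and with each array centred on its median (0.44, adjusted p = 0.0594). Once db/db 1 was out, it was kept in all 9 fits that left out 1 further array. Agmat, which hydrolyses agmatine, had -0.05 with all arrays and 0.13 without db/db 1, and Gatm, the amidinotransferase of creatine synthesis, had -0.14 and 0.09.

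Glycine and serine enzymes did not pass with all arrays, and 2 of the 5 rose without db/db 1. Gldc, the glycine decarboxylase of the glycine cleavage system, had 12.30, 13.12, 13.19, 13.22 and 13.08 in db/db mice 1 to 5, against 12.43, 12.70, 12.59, 12.42 and 12.44 in db/m mice 1 to 5. Db/db 1 had the lowest level of all, and the other 4 db/db mice lay above every db/m mouse. The change was 0.46 ± 0.17 (adjusted p = 0.14) with all arrays, and the rise without db/db 1 was 1.55-fold (0.64 ± 0.08, adjusted p = 0.000983). Shmt1, the cytosolic serine hydroxymethyltransferase, had 9.50, 10.37, 10.38, 10.32 and 10.01 in db/db mice 1 to 5, against 9.89, 9.33, 9.48, 9.48 and 9.88 in db/m mice 1 to 5. Db/db 1 again lay within the db/m range while the other 4 lay above it, with a change of 0.50 ± 0.19 (adjusted p = 0.149) and a rise of 0.66 ± 0.14 (adjusted p = 0.0132) without db/db 1. Both calls without db/db 1 were kept in all 9 fits that left out 1 further array.

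The enzymes that strip methyl groups from dimethylglycine and sarcosine, Dmgdh and Sardh, had changes of -0.18 and -0.16 with all arrays and 0.08 and 0.01 without db/db 1. Their levels in db/db 1 were 10.95 and 11.89, against db/m ranges of 11.94 to 12.40 and 12.57 to 12.89. Sds, the serine dehydratase, had -0.11 and -0.01 and lay between 5.43 and 6.20 in all arrays.

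Lysine and histidine entry enzymes did not pass. Uroc1, the urocanate hydratase of histidine breakdown, had the lowest adjusted p with all arrays, with 7.32, 8.26, 7.93, 7.96 and 8.37 in db/db mice 1 to 5, against 8.33, 7.63, 7.16, 7.56 and 7.49 in db/m mice 1 to 5. The groups overlapped through db/db 1 and db/m 1, and the change was 0.33 ± 0.24 (adjusted p = 0.469), or 0.50 (adjusted p = 0.159) without db/db 1. Hal, the histidine ammonia-lyase, had 0.08 with all arrays and 0.18 without db/db 1, and Aass, which starts lysine breakdown, had -0.09 and -0.04.

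The D-amino acid oxidases differed from each other. Ddo, which oxidises acidic D-amino acids such as D-aspartate, had 9.58, 9.57, 9.58, 10.03 and 10.0004 in db/db mice 1 to 5, against 10.45, 10.51, 10.53, 10.64 and 10.62 in db/m mice 1 to 5. All db/db mice lay below all db/m mice, and here db/db 1 was among the other db/db mice. The fall was 1.74-fold with all arrays (adjusted p = 0.00409) and 1.68-fold without db/db 1 (-0.75 ± 0.11, adjusted p = 0.00293), and was called in all 10 fits that left out 1 array. Dao, which oxidises neutral D-amino acids, had 13.36 to 13.63 in db/db mice, against 13.44 to 13.62 in db/m mice, with a change of 0.01 ± 0.07 (adjusted p = 0.964), or 0.05 without db/db 1. The difference between these 2 changes was not tested.

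Transsulfuration joins homocysteine to serine and then releases cysteine. Cbs, which makes cystathionine, had 11.80, 12.31, 12.36, 12.43 and 12.50 in db/db mice 1 to 5, against 12.94, 12.96, 12.93, 12.85 and 12.92 in db/m mice 1 to 5. All db/db mice lay below all db/m mice, and db/db 1 was the lowest of them. The fall was 1.56-fold with all arrays (adjusted p = 0.0149) and 1.43-fold without db/db 1 (-0.52 ± 0.06, adjusted p = 0.000883), and was called in all 10 fits that left out 1 array, at an adjusted p of at most 0.045, reached when db/m 3 was out. Cth, which cleaves cystathionine, had 11.75 in db/db 1 and 12.46 to 12.70 in db/db 2 to 5, against 12.56 to 12.70 in db/m mice. Its change was -0.22 (adjusted p = 0.486) with all arrays and -0.05 (adjusted p = 0.711) without db/db 1.

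Glutamate dehydrogenase and the aminotransferases had changes above 0 in 4 of 4 genes in both comparisons, and 2 rose without db/db 1. Gpt, the cytosolic alanine aminotransferase, had 10.08, 11.32, 11.36, 11.36 and 11.44 in db/db mice 1 to 5, against 10.71, 10.87, 11.00, 10.85 and 10.88 in db/m mice 1 to 5. Db/db 1 was the lowest array of all, while the other 4 db/db mice lay close together above the db/m mice. The change was 0.25 ± 0.24 (adjusted p = 0.591) with all arrays, and the rise without db/db 1 was 1.42-fold (0.51 ± 0.07, adjusted p = 0.00172), called in all 9 fits that left out 1 further array. Glud1, the glutamate dehydrogenase that releases ammonia, had 12.77, 12.96, 13.05, 13.11 and 13.03 in db/db mice 1 to 5, against 12.83, 12.88, 12.79, 12.78 and 12.74 in db/m mice 1 to 5. Without db/db 1 the groups did not overlap. Its change was 0.18 ± 0.08 (adjusted p = 0.2), and its rise without db/db 1 of 0.23 ± 0.06 (adjusted p = 0.0299) was called in 2 of 9 fits that left out 1 further array, those without db/m 2 and db/db 2, and the adjusted p reached 0.0875 when db/db 4 was out. The mitochondrial alanine aminotransferase Gpt2 had 0.14 and 0.18, and the cytosolic aspartate aminotransferase Got1 had 0.25 and 0.24, with adjusted p of at least 0.143.

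**Figure D2:**
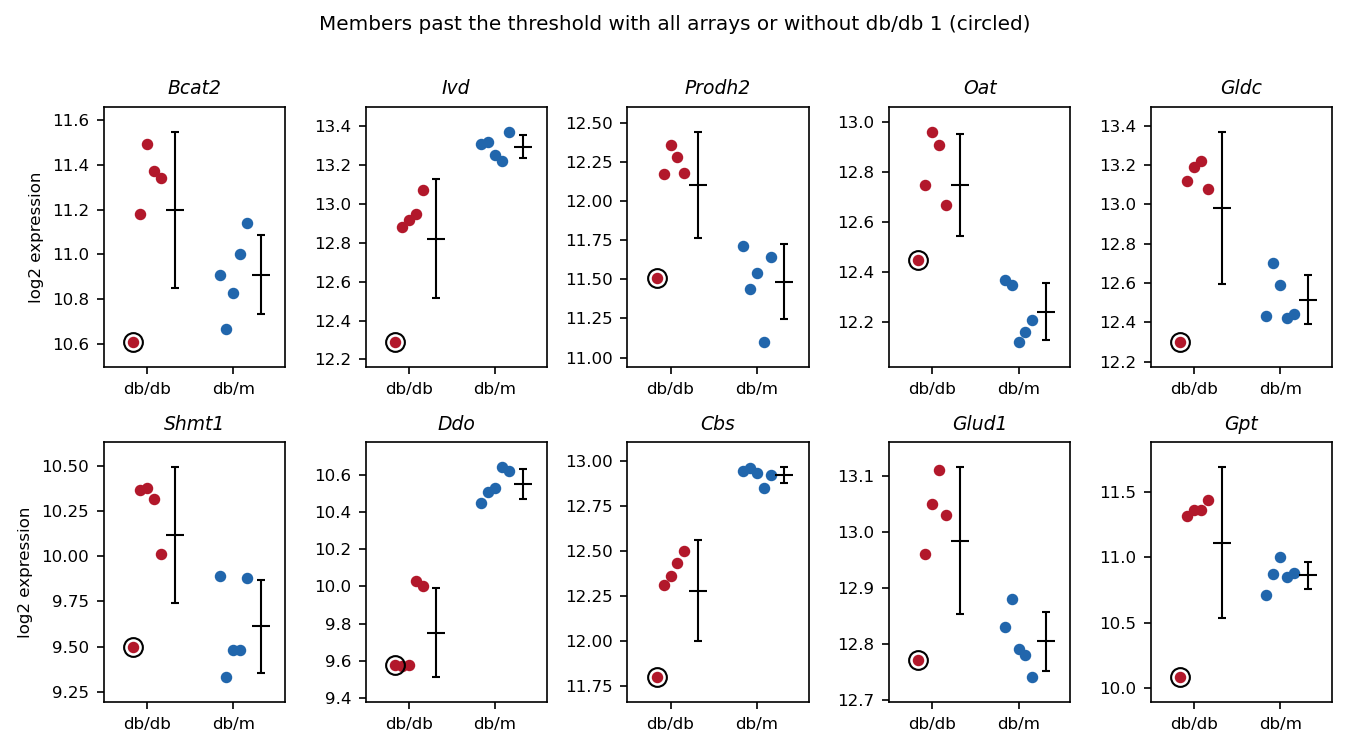
Log2 expression of the 10 enzymes past the threshold with all arrays or without db/db 1, 1 point per mouse, db/db left of db/m, with db/db 1 circled and bars giving the mean ± SD of all 5 mice. Each vertical axis has its own range. Oat, Ivd, Ddo and Cbs are apart between the groups in all 10 mice, and the other 6 are apart once db/db 1 is set aside.

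Groups that did not overlap were found for 5 of the 48 enzymes with all arrays (10.4%, beside 10.2% of all genes), namely Oat on the higher side and Ivd, Hibch, Ddo and Cbs on the lower side. Leaving out db/db 1 gave 11 (22.9%, beside 15.4% of all genes), the 10 called enzymes and Hibch, with 7 higher (14.6%, beside 7.76%) and 4 lower (8.33%, beside 7.61%). Of the 10 calls without db/db 1, 8 were kept in all 9 fits that left out 1 further array, all but Bcat2 and Glud1. The plot of changes places both comparisons side by side.

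**Figure D3:**
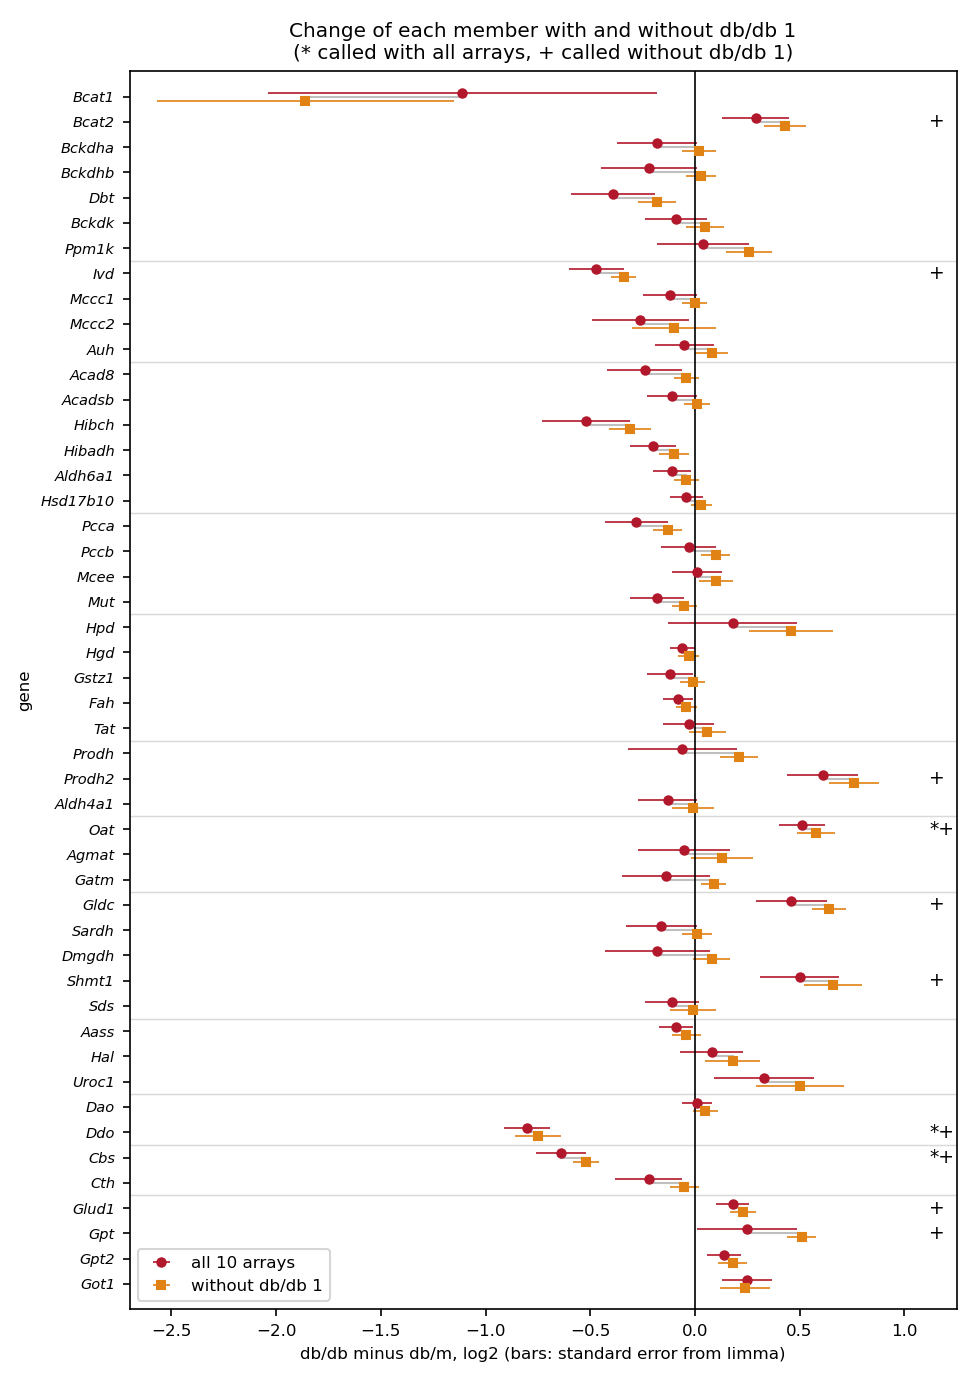
Change of each of the 48 enzymes (log2 units, db/db less db/m) with all 10 arrays (circles) and without db/db 1 (squares), with bars for the limma standard error. Stars mark enzymes past the threshold with all arrays and plus signs those past it without db/db 1. Setting db/db 1 aside moves most points to the right, and the median moves to 0.03 from -0.09.

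Beyond the 48 enzymes, 72 of 82 further genes of amino acid metabolism, listed by pathway, had a row, and 5 of them changed with all arrays (6.94%, beside the 6.51% of all genes). Asrgl1, an asparaginase of isoaspartyl peptides, rose 1.98-fold (0.99 ± 0.09, adjusted p = 0.000376), with 9.49 to 9.85 in db/db mice against 8.55 to 8.84 in db/m mice. Phgdh, the first enzyme of serine synthesis, rose by 0.44 ± 0.10 (adjusted p = 0.0305), with 6.76 to 6.89 in db/db mice against 6.16 to 6.73 in db/m mice. Odc1, the ornithine decarboxylase of polyamine synthesis, fell by 0.86 ± 0.16 (adjusted p = 0.0133), with 12.32 to 13.08 in db/db mice against 13.44 to 13.94 in db/m mice. In none of these 3 genes did the groups overlap. Setting db/db 1 aside left the changes of Asrgl1, Phgdh and Odc1 at 1.01, 0.44 and -0.73 (adjusted p = 0.00025, 0.0247 and 0.00388).

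Mmaa, which helps load the cobalamin cofactor of Mut, fell by 0.50 ± 0.12 (adjusted p = 0.0396), with 10.11 to 10.79 in db/db mice against 10.98 to 11.18 in db/m mice. Acy3, an aminoacylase that acts on acetylated aromatic amino acids, fell by 0.34 ± 0.06 (adjusted p = 0.0131), with 13.51 to 13.73 in db/db mice against 13.89 to 14.01 in db/m mice. For Mmaa and Acy3 the changes without db/db 1 were -0.39 and -0.31 (adjusted p = 0.0073 and 0.00721). With all arrays the calls of Asrgl1, Odc1 and Acy3 were kept in all 10 fits that left out 1 array, while those of Phgdh and Mmaa were kept in 3 and 2, and leaving out db/m 3 gave adjusted p of 0.0799 and 0.1.

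With db/db 1 out, 15 of the 72 further genes changed (20.8%, beside the 12.8% of all genes), 9 higher and 6 lower, the 5 above included. Bhmt, the betaine-homocysteine methyltransferase, rose 4.89-fold (2.29 ± 0.31, adjusted p = 0.00191), with 8.49 in db/db 1 and 11.86 to 12.43 in db/db 2 to 5, against 9.14 to 10.61 in db/m mice. Db/db 1 was the lowest array and the other 4 db/db mice the highest. Ftcd, of histidine and folate metabolism, rose by 0.65 ± 0.17 (adjusted p = 0.0353) with overlapping groups, a call kept in 1 of 9 fits that left out 1 further array, with 0.0832 as the highest adjusted p, when db/m 3 was out. Csad, the cysteine sulfinate decarboxylase of taurine synthesis, fell by 0.46 ± 0.08 (adjusted p = 0.0061), and this call and that of Bhmt were kept in all 9 such fits. With all arrays Bhmt, Ftcd and Csad had 1.56, 0.37 and -0.63 (adjusted p = 0.241, 0.523 and 0.0528).

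Arg1, the arginase best known from liver and activated macrophages, had 13.47 in db/db 1 and 5.40 to 5.77 in db/db 2 to 5, against 4.78 to 5.28 in db/m mice. Db/db 1 was thus far above every other array. In the other arrays the levels lay well under the array medians of 8.46 to 8.66, and whether Arg1 was expressed there was not tested. The change was 2.10 ± 1.41 (adjusted p = 0.432) with all arrays and 0.52 ± 0.13 (adjusted p = 0.0256) without db/db 1, and that call was kept in 4 of 9 fits that left out 1 further array, and leaving out db/m 3 as well gave an adjusted p of 0.0654. By pathway, the genes past the threshold with all arrays were 1 lower of 13 branched-chain and organic acid genes, 0 of 14 for phenylalanine, tyrosine, histidine and lysine, 1 lower of 13 for glutamine, proline and arginine, 1 higher of 13 for glycine, serine, one-carbon and choline steps, 0 of 13 for sulfur amino acids and 1 higher and 1 lower of 6 for acylated and aspartate derivatives. For the same pathways the counts without db/db 1 were 1 lower, 2 higher, 3 higher and 1 lower, 3 higher and 1 lower, 2 lower, and 1 higher and 1 lower.

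**Figure D4:**
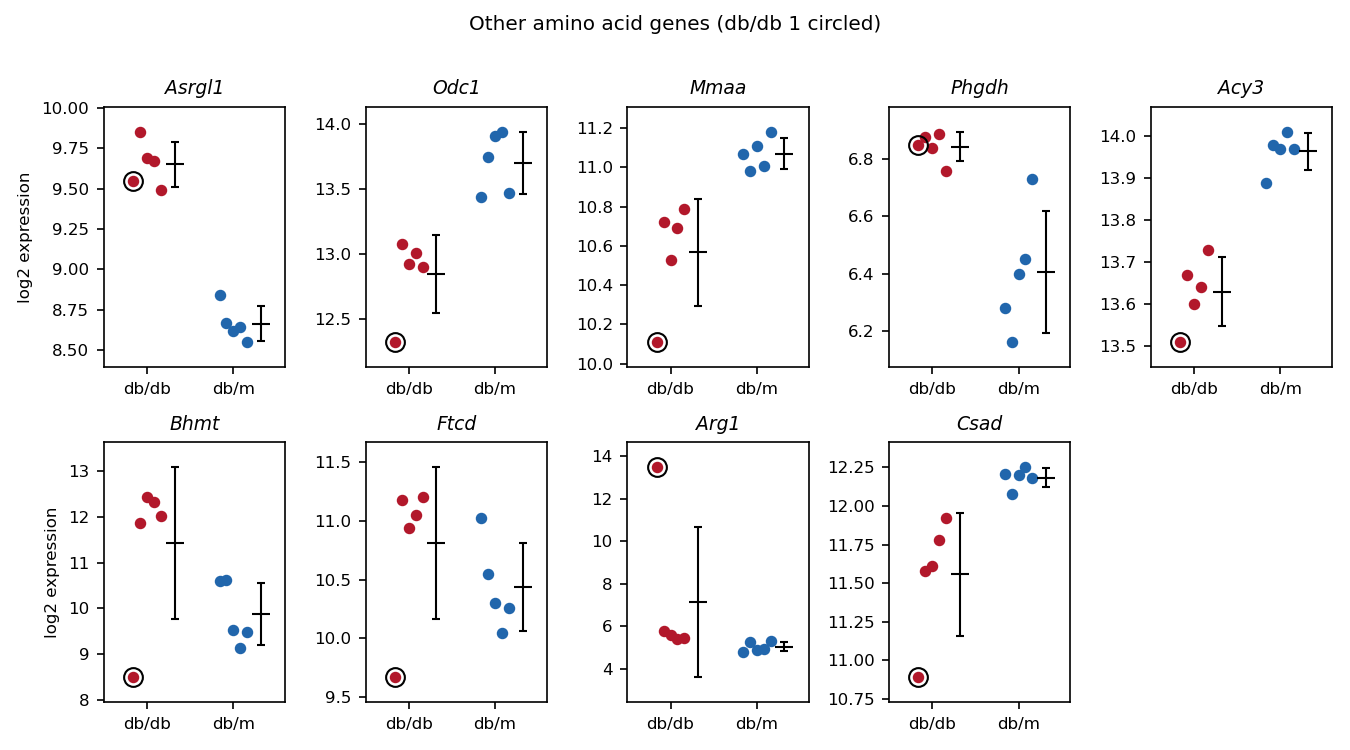
Log2 expression of 9 further amino acid genes, 1 point per mouse, db/db left of db/m, with db/db 1 circled and bars giving the mean ± SD of all 5 mice. The first 5 passed the threshold with all arrays and the last 4 without db/db 1 alone. Each vertical axis has its own range, and Asrgl1 is at 9.49 or above in all 5 db/db mice and at 8.84 or below in all 5 db/m mice.

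The labelled tissue was set against marker lists of kidney cell types. Over 11 proximal tubule markers of the S1 and S2 segments the list mean was 12.30 in db/db 1 and up to 13.10 in db/db 2 to 5, all 4 above the 12.75 to 12.95 of the db/m mice, and 0 of 11 passed with all arrays while 1 rose without db/db 1. Of 8 markers of the last proximal segment, S3, 4 fell with all arrays and 5 without db/db 1, and their list mean was 10.37 in db/db 1 and 10.17 to 11.01 in db/db 2 to 5, against 12.20 to 12.77 in db/m mice. The S3 markers did not move alike. With all arrays their changes ran from -5.17 for Slc22a7 and -4.71 for Slco1a1 to -0.04 for Aqp1 and 0.43 for Slc5a1, with 7 below 0 and 1 above. Of the 12 tubular injury genes 5 rose with all arrays and 8 without db/db 1, and of the 9 neutrophil and macrophage genes 0 passed with all arrays and 2 fell without db/db 1.

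The remaining cell types were read the same way. Over 8 fibroblast and endothelial genes it was 10.53 in db/db 1 and 8.60 to 9.51 in db/db 2 to 5, against 9.03 to 9.13 in db/m mice, with 0 past the threshold with all arrays, and 1 higher and 1 lower without db/db 1. Over 6 thick ascending limb genes the list mean was 11.11 in db/db 1 and 11.93 to 12.15 in db/db 2 to 5, against 11.95 to 12.23 in db/m mice, with 1 lower in each comparison. The distal lists and the podocyte list had higher calls instead. Over 5 distal and connecting tubule genes it was 9.23 in db/db 1 and 11.24 to 11.53 in db/db 2 to 5, against 10.63 to 11.01 in db/m mice, with 1 higher with all arrays and 5 without db/db 1. Over 8 collecting duct genes it was 8.91 in db/db 1 and 10.30 to 10.68 in db/db 2 to 5, against 9.78 to 10.18 in db/m mice, with 0 and 4 higher. Over 9 podocyte genes it was 8.91 in db/db 1 and 9.09 to 9.31 in db/db 2 to 5, against 8.58 to 8.71 in db/m mice, with 5 and 8 higher. No S1 and S2 marker fell in either comparison. Beside these marker counts, 2.96% of all genes were higher and 3.54% lower with all arrays, and 6.84% and 5.93% without db/db 1. How much glomerular tissue remained in each sample was not tested.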

How the data were processed

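Gene expression was measured in kidney cortex of 5 db/db and 5 db/m mice, 1 array each, grouped by the sample titles. The values are log2 expression as deposited. RMA is the tool named in the submitters' processing notes, and neither its version nor the regrouping of probes into genes is given there. The table held 16539 rows, of which 64 Affymetrix control rows were left out and 16475 genes were tested. By Entrez ID 16229 rows matched the RefSeq gene table.

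Tests used limma 3.58.1 under R 4.3.3 (lmFit and eBayes without trend, two-sided) on the log2 values as deposited, as db/db minus db/m, with Benjamini-Hochberg adjustment over all genes and a threshold of 0.05. No dim genes were left out. The fit was tested on simulated data. Of 100 genes set to change by 0.5 log2 units, 37% were recovered with all 10 arrays and 54% without db/db 1. For a change of 1 the shares were 65% and 94%. The simulated arrays had 1 spread per gene in all mice, so none stood apart as db/db 1 did. They held 200 changed genes, beside 1072 and 2104 past the threshold in the data. The shares are therefore only a rough guide to these comparisons. A gene that did not pass may still have changed. Arrays give no counts, so the number of mice limits precision. Values in every mouse are given for enzymes past the threshold in either comparison and, in lists without one, for the enzyme with the lowest adjusted p. Of the further genes the text names up to 6 past the threshold with the largest change and up to 4 more past it without db/db 1. Levels of Hpd, Bcat1, Dao, Cth, Dmgdh, Sardh and Sds were given after their values were seen. One of the further amino acid genes considered is not reported here. The enzymes, the lists and the comparison without db/db 1 were chosen with earlier results of these data known. The adjusted p values do not account for that choice. Alternatives were a replicate block, a filter, scaling, variance settings, array weights, arrays left out and a threshold of 0.01. Plots were made in Python 3.11.15 with matplotlib 3.10.9.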

Additional observations from a re-analysis of the deposited data

Results flagged for a closer look

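Of 96 groups of 5 levels (48 enzymes in db/db and in db/m), 25 held a mouse whose gap to its nearest neighbour was over 0.71 of the range of its group. Chance flags about 1 in 20 groups where these are independent. Here all enzymes were read in the same mice, so that rate is no measure for the 25, and the rate over all genes was not counted. In 23 of them the mouse was db/db 1, and in 22 of these it was the lowest. As a share of the range the gap of db/db 1 on the low side was 0.918 for Bckdha, 0.909 for Gpt, 0.902 for Gatm, 0.888 for Sardh, 0.875 for Dmgdh, 0.867 for Auh, 0.843 for Gldc, 0.836 for Hsd17b10, 0.822 for Acad8 and 0.811 for Prodh. It was 0.798 for both Pccb and Gstz1, 0.796 for Mut, 0.790 for Bckdhb, 0.777 for Prodh2, 0.764 for Ivd, 0.760 for Mccc1, 0.751 for Cth, 0.732 for Bckdk, 0.723 for Cbs, 0.718 for Acadsb and 0.717 for Agmat. Bcat1 was the exception, with db/db 1 on the high side at 10.69 and a gap of 0.825. In the db/m group the flagged levels were Pcca in db/m 4 (12.60, a gap of 0.773) and Mut in db/m 2 (13.03, a gap of 0.712).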

How the results depend on the processing

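With the mouse number as a replicate block 393 of all genes, 1 enzyme (Ddo) and 2 further amino acid genes passed, in place of 1072, 3 and 5. The sample titles give these mice only a number, so whether same-numbered mice were pairs is not known. Their deviations from the group means correlated at -0.0948 to 0.00599, which cannot settle it, since the db/db mean includes db/db 1. With array weights the counts were 2641, 10 and 14, and at an adjusted p under 0.01 they were 279, 1 and 1. With the block and db/db 1 left out 985 of all genes and 7 enzymes passed. Of the 7 enzymes 6 were among the 10 called and Uroc1 was added (adjusted p = 0.0229), while Ivd (0.0638), Shmt1 (0.0606), Bcat2 (0.0665) and Glud1 (0.164) were not called. Leaving out 1 array gave 490 to 2104 genes, 2 to 10 enzymes and 3 to 15 further genes, the highest each without db/db 1 and the lowest gene count without db/m 3. Without db/db 1 and 1 further array 8 to 12 enzymes passed, while of all genes 767 to 1077 were higher and 615 to 873 lower. Centring arrays on their medians moved the median of all genes to -0.101 from -0.033 and the split to 363 higher and 751 lower, from 488 and 584; Oat lost its call there. Without db/db 1 it gave 910 higher and 1309 lower, from 1127 and 977, and Bcat2 and Glud1 lost theirs (adjusted p = 0.0502 and 0.065).

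The 10 called enzymes kept their direction in the settings run on all arrays and on those without db/db 1. Signs turned for 20 other enzymes. With array weights these were Bckdhb 0.04, Bckdk 0.03, Auh 0.07, Acadsb 0.02, Hsd17b10 0.03, Pccb 0.09, Tat 0.05, Prodh 0.17, Aldh4a1 0.03, Agmat 0.11, Gatm 0.08, Sardh 0.00 and Dmgdh 0.06. With the replicate block and db/db 1 left out they were Bckdha 0.04, Bckdhb 0.04, Bckdk 0.05, Mccc1 0.02, Auh 0.09, Acadsb 0.01, Hsd17b10 0.03, Pccb 0.12, Gstz1 0.00, Tat 0.10, Prodh 0.22, Aldh4a1 0.01, Agmat 0.26, Gatm 0.07, Sardh 0.02 and Dmgdh 0.14. Median centring gave Ppm1k -0.02, Mcee -0.06 and Dao -0.06, and repeated quantile normalisation gave Ppm1k -0.05 and Tat 0.00. Over the fits that left out 1 array the ranges were -0.24 to 0.02 for Bckdha, -0.32 to 0.03 for Bckdhb, -0.15 to 0.05 for Bckdk, -0.05 to 0.26 for Ppm1k, -0.10 to 0.08 for Auh, -0.16 to 0.01 for Acadsb, -0.06 to 0.03 for Hsd17b10, -0.08 to 0.10 for Pccb, -0.04 to 0.10 for Mcee, -0.08 to 0.06 for Tat, -0.15 to 0.21 for Prodh, -0.13 to 0.13 for Agmat, -0.21 to 0.09 for Gatm, -0.21 to 0.01 for Sardh, -0.27 to 0.08 for Dmgdh, -0.02 to 0.18 for Hal and -0.02 to 0.05 for Dao. The cause of these turns was not tested.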

Other observations

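Among the 72 further amino acid genes db/db 1 was the lowest of the 10 arrays for 58 (80.6%, beside 41.6% of all genes). Db/db 1 was the highest for 6 (8.33%, beside 19.9% of all genes), so less often than over all genes. These were picked out after their values were seen. These 6 serve arginine, proline, polyamine, asparagine and histamine steps. Besides Arg1, the mitochondrial arginase gene Arg2 had 11.92 in db/db 1 and 8.48 to 9.62 in db/db 2 to 5, against 7.44 to 9.21 in db/m mice. The asparagine synthetase gene Asns had 10.67 in db/db 1 and 8.21 to 8.76 in db/db 2 to 5, against 7.97 to 8.83 in db/m mice. Aldh18a1, which makes pyrroline-carboxylate for proline synthesis, had 9.92 in db/db 1 and 7.28 to 8.37 in db/db 2 to 5, against 6.95 to 7.52 in db/m mice. The spermine oxidase gene Smox had 10.19 in db/db 1 and 8.17 to 8.53 in db/db 2 to 5, against 8.14 to 8.68 in db/m mice. The histidine decarboxylase gene Hdc had 9.88 in db/db 1 and 5.60 to 7.70 in db/db 2 to 5, against 5.07 to 5.72 in db/m mice. None of these 5 genes passed the threshold by limma, with adjusted p of 0.171 to 0.607 with all arrays and 0.0954 to 0.951 without db/db 1.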
